A study of Homo sapiens with 4 samples.

Results

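The human microRNAs (miRNAs) numbered miR-6716 to miR-6895 entered the miRNA catalogue late, and many of them are annotated as mirtrons. They were examined in 4 small RNA-seq libraries of cortical interneurons, inhibitory nerve cells differentiated in culture from the human embryonic stem cell line H1. Of the 2656 mature miRNAs in the deposited count table, 350 carried a number in this range, and the 114 with at least 10 counts summed over the 4 libraries were taken as members. A further 153 rows of the range held 1 to 9 counts and 83 held 0. The members comprised 60 5p arms and 54 3p arms from 94 precursor names, where the arm says which strand of the hairpin the mature miRNA comes from. The members were thus chosen by their summed counts, so the levels given for them are a description and were not tested.

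The libraries formed a pair of groups of 2. The 2 exposed cultures received around 50 to 100 mM ethanol for 7 days and then 24 h of medium without it, and the 2 unexposed cultures received no ethanol. All 4 came from the same cell line and the same differentiation protocol, so the replicates are cultures of 1 donor line and not donors, and p-values measure the spread between these cultures, which may be partly technical. The libraries held between 12100425 and 24858230 counts, both exposed libraries were deeper than both unexposed libraries, and depth and exposure cannot be told apart. The 5 miRNAs listed as neuronal markers made up 223139 to 243616 counts per 1000000 (CPM) in each library. Of 6 pluripotency miRNAs, miR-367-3p had 0 counts, and all 6 together reached 2.74 to 4.13 CPM. Markers of blood cells summed to at most 0.684 CPM, with 2 of 4 at 0, those of astrocytes and oligodendrocytes to at most 4.36 CPM, of epithelial cells to at most 46.3 CPM, of mesenchymal cells to at most 119 CPM, and of muscle and liver to at most 355 CPM. In bulk RNA, fewer cells of a type and less RNA per cell cannot be told apart.

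In the usual route, a miRNA hairpin is cut out of a longer primary transcript by the nuclease Drosha and is then cut by Dicer into a duplex, of which 1 strand is loaded into an Argonaute protein. A mirtron skips the Drosha step: a short intron is removed by the spliceosome, its lariat is opened by the debranching enzyme, and the linear intron folds into a hairpin that Dicer can cut. In a tailed mirtron only 1 end of the hairpin coincides with a splice site, and exonucleases trim the remaining tail. The mature miRNA then finds its targets mainly through the seed, bases 2 to 8 from its 5′ end.

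The sequences of the most abundant members show the 2 kinds of arm found in the block. They are RefSeq mature sequences (GRCh38.p14), written 5′ to 3′ with the seed in capitals, and they are shown because the later results divide along these arms. Sequences were found in this table for 100 of the 114 members, and for 10 of the 12 members with the highest mean CPM. Those of miR-6866-5p and miR-6747-3p were not among them.
miR-6868-3p: uUCCUUCUguugucugugcag
miR-6716-3p: uCCGAACUcuccauuccucugc
miR-6741-3p: uCGGCUCUcucccucacccuag
miR-6724-5p: cUGGGCCCgcggcgggcgugggg
miR-6882-5p: uACAAGUCaggagcugaagcag
miR-6755-5p: uAGGGUAGacacugacaacguu
miR-6818-5p: uUGUGUGAguacagagagcauc
miR-6794-5p: cAGGGGGAcugggggugagc
miR-6764-5p: uCCCAGGGucuggucagaguug
miR-6721-5p: uGGGCAGGggcuuauuguaggag

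Over all members with a sequence, the 47 3p arms were rich in C and poor in G, at 42.8% and 14.9% of their bases, whereas the 53 5p arms held 44.7% G and 15.2% C. The dinucleotide AG, with which nearly all human introns end, closed 74.5% of the 3p arms, and CAG closed 61.7%. Among the 3p arms outside the range, 10.5% ended in AG and 26.4% of the bases were C. The 5p arms of the block ended in AG in 9.43% of cases. A first base of U, which Argonaute proteins favour, was found in 57.4% of the 3p members and 54.7% of the 5p members. Outside the range, it was found in 34.4% of the 3p and 39.8% of the 5p arms. These arms were not chosen by counts, whereas the members were. Among rows of the range with fewer than 10 counts, it was found in 46.2% of the 3p and 38.5% of the 5p arms. The 5p figure there was near that outside the range.

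The whole hairpins place both arms relative to the intron. They are RefSeq precursors on GRCh38.p14, with the mature arms in capitals. MIR6857 is shown as a hairpin that fills nearly all of its intron, and MIR6868, MIR6882 and MIR6726 as hairpins at the 3′ end of a host intron. All 4 are on the minus strand.
MIR6857 (chrX:53405673-53405765): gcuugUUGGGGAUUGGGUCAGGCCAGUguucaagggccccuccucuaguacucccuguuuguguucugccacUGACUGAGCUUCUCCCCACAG
MIR6868 (chr17:76098019-76098076): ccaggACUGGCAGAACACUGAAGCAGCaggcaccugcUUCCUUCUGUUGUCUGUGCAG
MIR6882 (chr15:74840642-74840707): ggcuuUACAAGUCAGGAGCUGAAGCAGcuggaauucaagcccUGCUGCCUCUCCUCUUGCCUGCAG
MIR6726 (chr1:1296110-1296170): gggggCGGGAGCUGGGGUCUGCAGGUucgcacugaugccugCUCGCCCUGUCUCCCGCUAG

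The label of the block was checked against the introns of GENCODE 29 on the same strand, counting a precursor as being at a splice site when the end of its hairpin or of its outer mature arm lay within 5 bases of it. Of 83 precursors that had a member and a position, 75 (90.4%) ended at a 3′ splice site and 4 (4.82%) touched both splice sites of the intron. Of the other 4, 2 had their mature arms inside an intron, and 2 had no host gene on their strand. MIR6721 was among the former, although its hairpin runs past the 3′ end of the intron. The place was therefore that of a mirtron or tailed mirtron for 95.2% of these precursors, against 5.81% of 1359 precursors outside the range. The outer mature arm ended exactly on the last base of the intron for 60 of the 79 splice-site precursors. The other element of the label, short introns, held for fewer of them. The host introns ranged from 79 to 7637 bases with a median of 246, and 26 of the 79 were of 150 bases or fewer while 18 were longer than 1000. Position within an intron says where the sequence lies, and whether these cells make it by splicing was not measured.

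**Figure D1:**
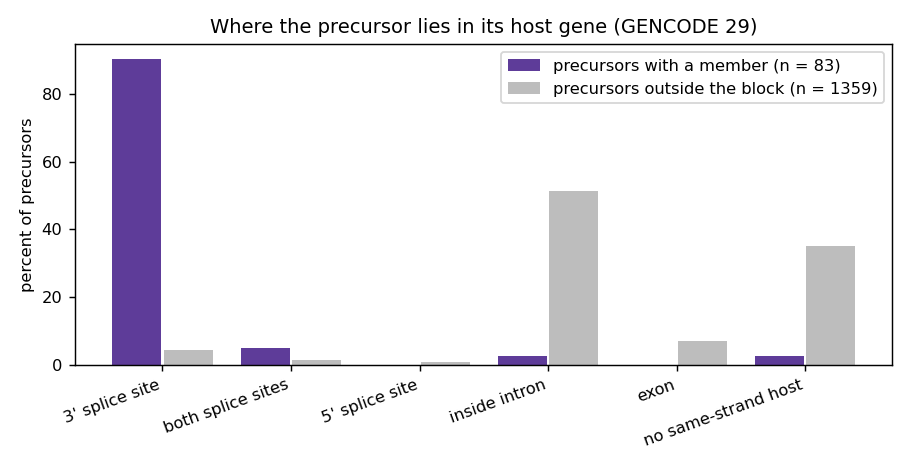
Percent of precursors (y axis) by place in the host gene (x axis), for the 83 precursors with a member and the 1359 precursors outside the range. The members' precursors stand at the 3′ splice site in 90.4% of cases, while most of the others lie inside introns or have no host on their strand.

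All members were rare. The sums over the 4 libraries ran from 10 to 377 counts with a median of 29.5, 22 members had more than 100 counts and 44 had fewer than 20. The most abundant member stood at rank 450 of the table. At the edge of the rule, 11 members had exactly 10 counts and 3 had 11 (miR-6780b-3p, miR-6797-3p and miR-6805-5p), while miR-6727-5p, miR-6740-5p, miR-6758-5p and miR-6796-3p, with 9, fell outside. At least 1 count was found in every library for 106 members. The members with 10 or more counts numbered 54 and 55 with ethanol and 27 and 33 without it. These are raw counts, and the exposed libraries were deeper, with 22223060 and 24858230 counts against 13941795 and 12100425. The numbers are therefore not a comparison of levels. The 12 members with the highest mean CPM held 43.8% of all member counts. The floor for calling a miRNA present was set at 3 counts, which is 0.121 to 0.135 CPM in the exposed and 0.215 to 0.248 CPM in the unexposed libraries.

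Counts are given below in the order exposed 1, exposed 2, unexposed 1 and unexposed 2, and CPM values were scaled by TMM, the trimmed mean of M values, unless stated otherwise. miR-6868-3p, from an intron of EXOC7, which encodes a subunit of the exocyst that tethers secretory vesicles to the membrane, had 161, 98, 35 and 83 counts. Its level was 5.21 ± 1.67 CPM in exposed and 4.71 ± 2.46 CPM in unexposed cells (SD, n = 2 each). The lowest and the highest of its 4 values were both unexposed cultures, so the groups overlapped. Its other arm, miR-6868-5p, had 0 counts in every library, so all of the signal of this hairpin came from the strand that ends at the splice site.

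miR-6716-3p, from an intron of PHLDB1, had 114, 97, 30 and 94 counts, or 4.52, 3.99, 2.54 and 7.31 CPM. miR-6747-3p had 59, 47, 10 and 74 counts, or 2.34, 1.93, 0.848 and 5.75 CPM. miR-6741-3p had 78, 45, 11 and 41 counts, or 3.09, 1.85, 0.933 and 3.19 CPM. In all 3, as in miR-6868-3p, unexposed replicate 1 was the lowest library and unexposed replicate 2 the highest on this scale. Without TMM scaling unexposed replicate 1 was still the lowest in all 4, but exposed replicate 1 was the highest for miR-6868-3p and miR-6741-3p.

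The most abundant 5p arms lay closer together across the cultures. miR-6724-5p had 136, 112, 49 and 60 counts, with 4.997 ± 0.560 CPM in exposed and 4.41 ± 0.360 CPM in unexposed cells (SD, n = 2 each). RefSeq positions were found for 2 loci of it on chromosome 21, with identical mature sequence, between which reads cannot be divided. Neither had a host on its strand. miR-6882-5p, from an intron of ULK3, which encodes a protein kinase, had 92, 81, 54 and 48 counts, or 3.49 ± 0.227 and 4.15 ± 0.599 CPM (SD, n = 2 each). miR-6866-5p had 67, 92, 47 and 52 counts. For these 3 the highest culture was nearer to the lowest than for any of the 4 3p arms.

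Among the remaining 5p arms of the 12, miR-6755-5p lies in an intron of EED, a core subunit of the Polycomb repressive complex, and had 90, 76, 32 and 40 counts. miR-6764-5p lies in an intron of YY1, a zinc finger transcription factor, and had 42, 38, 21 and 27 counts. miR-6818-5p, in an intron of the lipid phosphatase gene MTMR3, had 54, 52, 30 and 25 counts, and its partner miR-6818-3p had 41, 37, 16 and 14. miR-6794-5p, in an 80-base intron of the kinase gene MAST1, had 59, 51, 15 and 23 counts. miR-6721-5p, inside a 126-base intron of AGPAT1, an enzyme of phospholipid synthesis, had 33, 48, 27 and 21 counts.

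**Figure D2:**
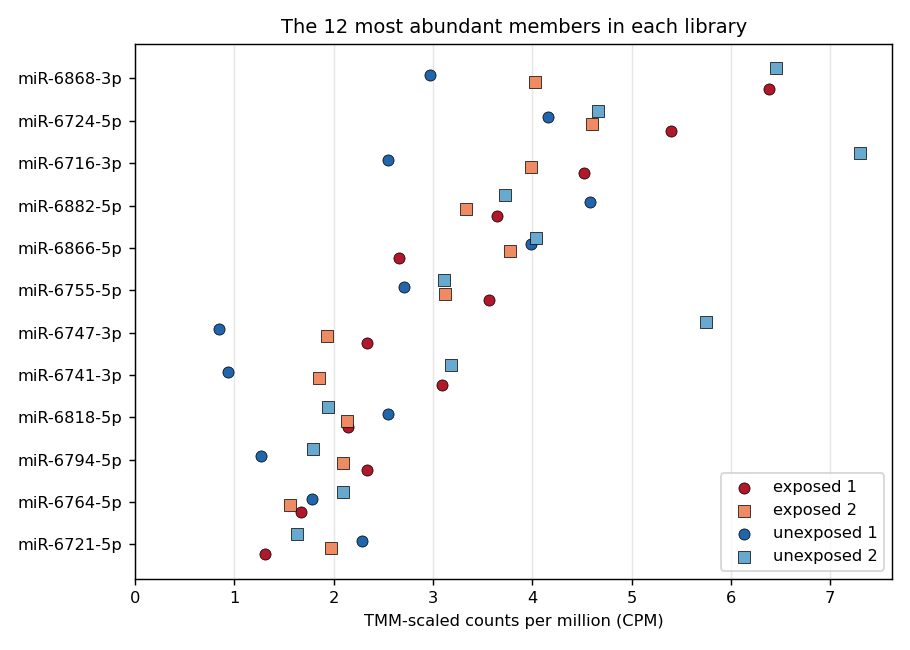
TMM-scaled CPM (x axis) of the 12 members with the highest mean CPM (y axis) in each of the 4 libraries; points are shifted vertically so that equal values remain visible. For miR-6868-3p, miR-6716-3p, miR-6747-3p and miR-6741-3p the 2 unexposed cultures are the lowest and the highest point, whereas the points of miR-6724-5p and miR-6882-5p lie closer together.

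Both arms were members for 20 precursors. The 3p arm had more counts in 9 of these and the 5p arm in 11, with 13.8% (MIR6733) to 86.9% (MIR6726) of the counts of a hairpin on the 3p arm. In 15 of the 20 the same arm was ahead in all 4 libraries, 6 times the 3p and 9 times the 5p arm. For MIR6726, in an intron of ACAP3, the 3p arm had 59, 35, 9 and 16 counts and the 5p arm 9, 4, 2 and 3. For MIR6733, in an intron of EBNA1BP2, a gene of ribosome assembly, the 5p arm had 40, 36, 26 and 17 counts, and 10.3% to 18.4% of each library's counts for this hairpin were 3p. A preferred arm was thus seen in either direction within hairpins at the same place of the intron. For several of the abundant members the opposite arm was nearly missing: miR-6716-5p had 1 count in all, miR-6866-3p 2, miR-6764-3p 3, miR-6755-3p 4 and miR-6882-3p 5, and miR-6747-5p had 0.

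Summed by arm and scaled by TMM, the 60 5p members were at nearly the same level in every culture, and the 54 3p members were not. The 5p sum was 43.7, 44.9, 44.3 and 45.5 CPM. The 3p sum was 46.8, 37.1, 26.03 and 49.5 CPM. The lowest and the highest 3p sum were both in unexposed cultures. Without TMM scaling the 5p sum was 49.6, 44.0, 37.4 and 48.3 CPM and the 3p sum 53.1, 36.3, 22.0 and 52.6 CPM, so unexposed replicate 1 was lowest for both arms, more so for 3p, and exposed replicate 1 was the highest. The 50 3p members outside the 12 most abundant gave the same order for the lowest library, with 30.5, 25.3, 18.7 and 26.8 CPM, although there exposed replicate 1 was the highest. As a share of the member counts within a library, which needs no scaling, the 3p arms made up 51.7% (95% Wilson interval 49.7 to 53.8), 45.2% (43.1 to 47.4), 37.0% (33.8 to 40.4) and 52.1% (49.3 to 54.9). These intervals cover counting error only, since reads amplified by PCR without molecular identifiers are not independent molecules.

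Other miRNAs are set beside this. Over the rest of the table the 3p share was 25.4%, 22.1%, 17.0% and 23.9%, with unexposed replicate 1 again lowest, but this share is set by a few very abundant miRNAs. Over the 448 other 3p or 5p rows whose sums lay in the members' range of 10 to 377 counts, it was 53.1%, 50.6%, 51.1% and 51.2%. Within these, unexposed replicate 1 did not stand apart.

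**Figure D3:**
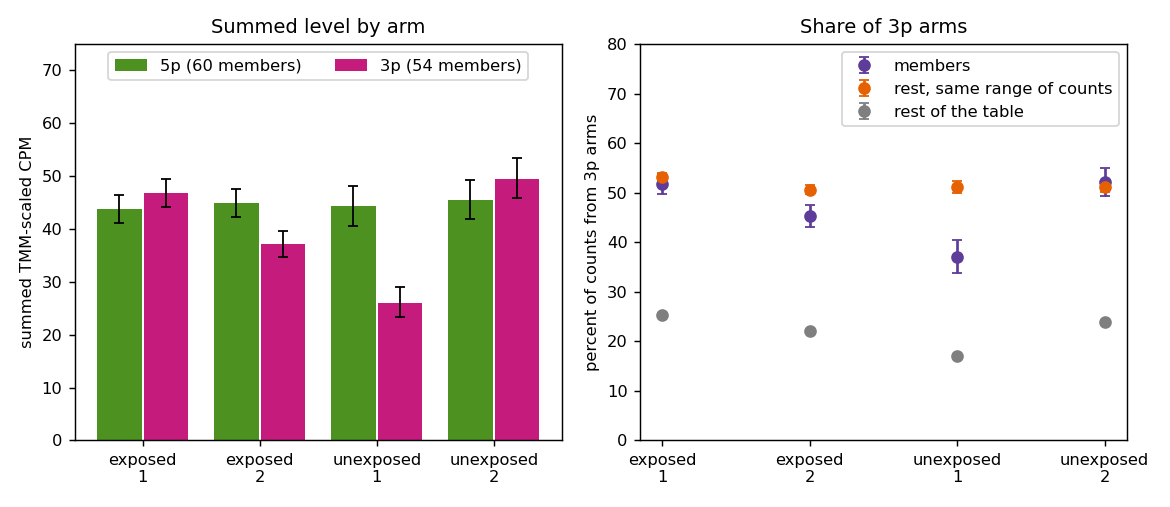
Left, summed TMM-scaled CPM (y axis) of the 5p and 3p members in each library (x axis), and right, the percent of counts on 3p arms for the members, the other rows in the same range of counts and the rest of the table; error bars are 95% Wilson intervals from counting alone. The 5p sum stays at 43.7 to 45.5 CPM, while the 3p sum runs from 26.03 CPM in unexposed replicate 1 to 49.5 CPM in unexposed replicate 2.

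Per miRNA, the difference between the unexposed cultures could be followed among the members deep enough for the fit, 41 of 114, of which 20 were 3p and 21 were 5p arms. The ratio of unexposed replicate 2 to replicate 1 was above 1 in 18 of the 20 3p members, with a median log2 ratio of 0.91, and in 14 of the 21 5p members, with a median of 0.08. Outside the range, the median was 0.05 over 325 3p arms, of which 176 were higher in replicate 2, and -0.08 over 326 5p arms, of which 151 were. Between the exposed cultures, the median log2 ratio of replicate 2 to replicate 1 was -0.17 for the 3p and -0.05 for the 5p members. Among the 73 members below the filter, the ratio was above 1 in 18 of 34 3p arms and 21 of 39 5p arms. The remainder included members with equal counts in both cultures, such as miR-6853-3p with 5 in each. At so few counts, these numbers cannot tell whether such a shift was present. These are ratios of 1 culture to another, and they carry no test.

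Base composition and position were set beside this difference. These groups were compared after the members' values had been seen. Of the other 3p arms with more than 40% C, 26 of 37 were higher in unexposed replicate 2, with a median log2 ratio of 0.35, and of the other 3p arms at a 3′ splice site, 9 of 14 were, with a median of 0.53. The 25 other 3p arms that end in AG had a median of 0.22. The 17 other 5p arms at a 3′ splice site also had a median of 0.26, with 12 higher in unexposed replicate 2. The other 3p arms with more than 40% C differed as much between the exposed cultures, where the median log2 ratio of replicate 2 to replicate 1 was -0.37 and 30 of 37 were higher in replicate 1. Within the block, the 12 tested 3p members that end in AG had a median of 0.73, with 11 higher, and the 4 with another listed end a median of 0.94, with 3 higher, so it was seen with either ending. The part that base composition, splicing, library preparation or depth plays in the difference was not tested.

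**Figure D4:**
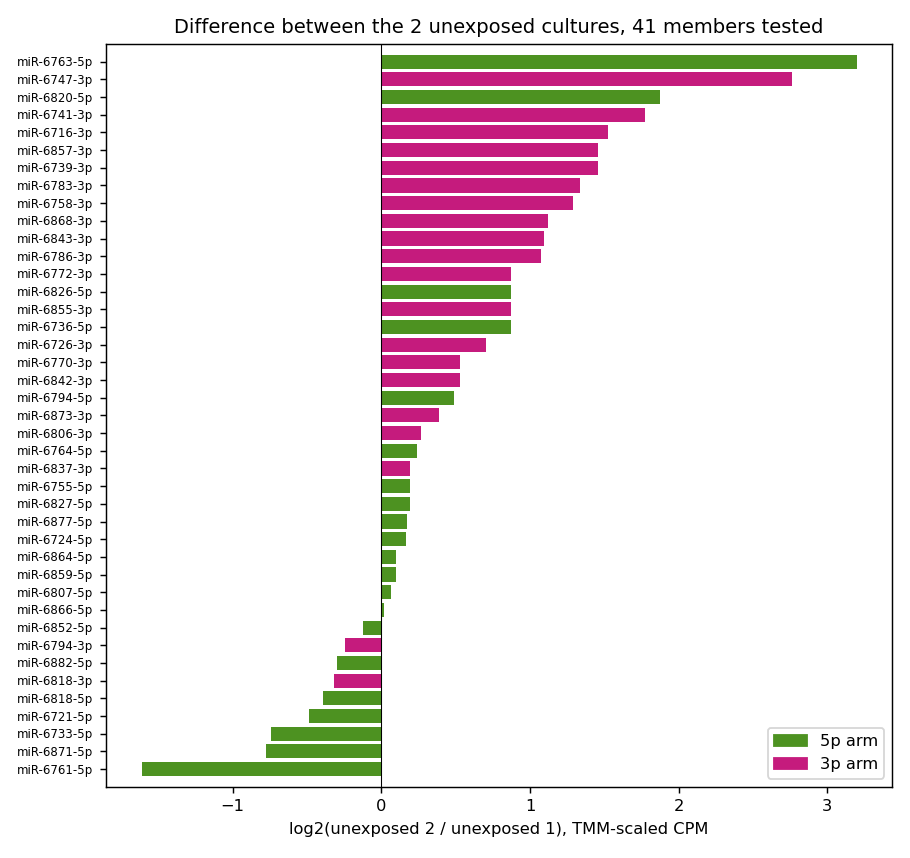
Log2 ratio of unexposed replicate 2 to unexposed replicate 1 (x axis, TMM-scaled CPM) for the 41 members tested (y axis), coloured by arm. Of the 3p arms 18 of 20 lie to the right of 0, and of the 5p arms 14 of 21.

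The study asked whether ethanol changes the miRNAs of these interneurons. For the block as a whole the answer at this depth was that no difference between exposed and unexposed cells exceeded the spread between cultures. The members summed to 90.5, 82.0, 70.3 and 94.98 CPM, or 103, 80.3, 59.5 and 101 CPM without TMM scaling. The groups overlapped, and the log2 ratio of exposed to unexposed was 0.06 (two-sided exact permutation test over libraries, p = 1; 0.333 is the smallest p that 2 against 2 allows). The 3p share of the 20 precursors with both arms was 57.6%, 48.6%, 42.5% and 52.6%, a difference of 5.55 percentage points that did not stand out from the spread (exact permutation p = 0.667). The 3p percentage was higher in exposed cells in 13 of the 20 precursors, some of which held few counts, such as miR-6780b with 11 3p and 10 5p counts in all. The pooled 3p share was also higher in exposed cells over the rest of the table, by 3.28 percentage points. Over the other rows in the members' range of counts it was higher by 0.676 points. The number of precursors is thus not read as particular to the block.

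Of the 114 members, 41 passed the filter on low counts and entered edgeR's quasi-likelihood test, which was fitted on all 863 miRNAs that passed. Of the 41, 1 had an unadjusted P under 0.05, against 4.52% of all miRNAs tested, and the same member was the only one also past a fold change of 2, against 2.32% (1.27% higher and 1.04% lower in exposed cells). No other member passed a fold change of 2 at any P, which 2.9% of all miRNAs did. After Benjamini-Hochberg adjustment over the 863 miRNAs, 0 members were below 0.05 (0.0% of all miRNAs), and the lowest adjusted p of a member was 0.922. The log2 fold changes of exposed over unexposed cells ran from -0.64 to 1.81 with a median of 0.07, beside -0.01 over all miRNAs tested. In 23 of 41 members the exposed mean was higher, where the share over all was 48.8%. After TMM scaling, the groups did not overlap for 11 of 41 members, 6 higher and 5 lower in exposed cells, against 33.4% of all miRNAs (18.8% higher and 14.6% lower). The members' share was below that of the whole table. Their median standard error was 0.43 on the log2 scale, beside 0.33 for all miRNAs tested.

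The member past both thresholds was miR-6857-3p, whose hairpin, printed above, fills nearly all of a 98-base intron of SMC1A, a gene that encodes a subunit of the cohesin ring. It had 14, 15, 1 and 3 counts, or 0.630 (95% Wilson interval 0.375 to 1.06), 0.603 (0.366 to 0.996), 0.0717 (0.0127 to 0.406) and 0.248 (0.0843 to 0.729) CPM before TMM scaling. Both exposed cultures were above both unexposed ones, of which replicate 1 was under and replicate 2 at the floor of 3 counts. It was the only 1 of the 41 to reach the filter's cut of 0.553 CPM in the exposed libraries alone. A miRNA that enters the fit only through the group where it is high had to differ, so its log2 fold change of 1.81, with a standard error of 0.62 (edgeR, adjusted p = 0.922), is given as a description. With a CPM above 1 in 2 libraries, or 10 counts in every library, as the filter, 0 members passed both thresholds. Neither filter lets miR-6857-3p into the fit, so these do not retest it. Its unadjusted P was under 0.05 with edgeR but not with DESeq2, where the log2 fold change was 1.83, nor when exposed replicate 2 or unexposed replicate 1 was left out, with values of 1.73 and 1.31. Its sequence is given with that of its partner, which had 0 counts in every library and faces it in the hairpin.
miR-6857-3p: uGACUGAGcuucuccccacag
miR-6857-5p: uUGGGGAUugggucaggccagu

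The next changes in size did not pass the test. miR-6763-5p, from an intron of FBRSL1, had 25, 17, 1 and 10 counts and a log2 fold change of 0.92 ± 0.68 (SE, edgeR, adjusted p = 0.922). miR-6726-3p had a log2 fold change of 0.90 ± 0.43 (SE, edgeR, adjusted p = 0.922), and its 4 values did not overlap between groups. In the other direction the values were -0.64 ± 0.67 for miR-6747-3p, -0.52 ± 0.52 for miR-6826-5p, from an intron of the coat protein gene COPG1 with 9, 16, 6 and 12 counts, and -0.39 ± 0.33 for miR-6877-5p, from an intron of GTF3C5, a subunit of a general factor for RNA polymerase III, with 35, 40, 22 and 27 counts. The adjusted p of these 3 ran from 0.925 to 0.940. Of these 3, only miR-6877-5p had values that did not overlap between groups after TMM scaling. Its values overlapped without the scaling, at 1.57 and 1.61 CPM in exposed against 1.58 and 2.23 CPM in unexposed cells.

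Among the most abundant members the test gave log2 fold changes of 0.14 ± 0.43 for miR-6868-3p, 0.18 ± 0.30 for miR-6724-5p, -0.22 ± 0.46 for miR-6716-3p and -0.25 ± 0.30 for miR-6882-5p, with edgeR's adjusted p between 0.963 and 0.983. For miR-6794-5p, both exposed cultures lay above both unexposed ones, at 2.34 and 2.10 against 1.27 and 1.79 CPM. Its log2 fold change was 0.53 ± 0.34 (SE, edgeR, adjusted p = 0.922). Among the 12, the groups also did not overlap for miR-6755-5p, higher in exposed cells. They did not overlap for miR-6882-5p, miR-6866-5p and miR-6764-5p either, all lower in exposed cells. Without TMM scaling, the groups overlapped for miR-6755-5p and for all of these lower ones, but not for miR-6794-5p. For miR-6882-5p the unscaled values were 4.14 and 3.26 CPM in exposed against 3.87 and 3.97 CPM in unexposed cells. The log2 fold changes were 0.20 for miR-6755-5p and -0.25, -0.32 and -0.27 for the lower ones.

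Which unexposed culture was used set the direction for the 3p arms. With both, the median log2 fold change was 0.17 for the 20 3p members, of which 15 were higher in exposed cells. It was -0.19 for the 21 5p members, of which 8 were. Outside the range, 163 of 325 3p arms and 152 of 326 5p arms were higher, with medians of 0.006 and -0.03. Without unexposed replicate 1 the 3p median was -0.19 and 5 of 20 were higher. Without unexposed replicate 2 it was 0.77 and 20 of 20 were higher, and 6 of the 41 members then passed both thresholds, when the count over all 863 miRNAs rose from 20 to 45. For the 5p members the medians were 0.0048 and -0.15 under the same omissions. Over all 863 miRNAs, both arms together, the median was 0.04 under either omission. The exposed cultures mattered for the size too. Without exposed replicate 1 the 3p median was 0.025, with 11 of 20 higher, and the 5p median was -0.06. Without exposed replicate 2 these medians were 0.30 and -0.15.

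**Figure D5:**
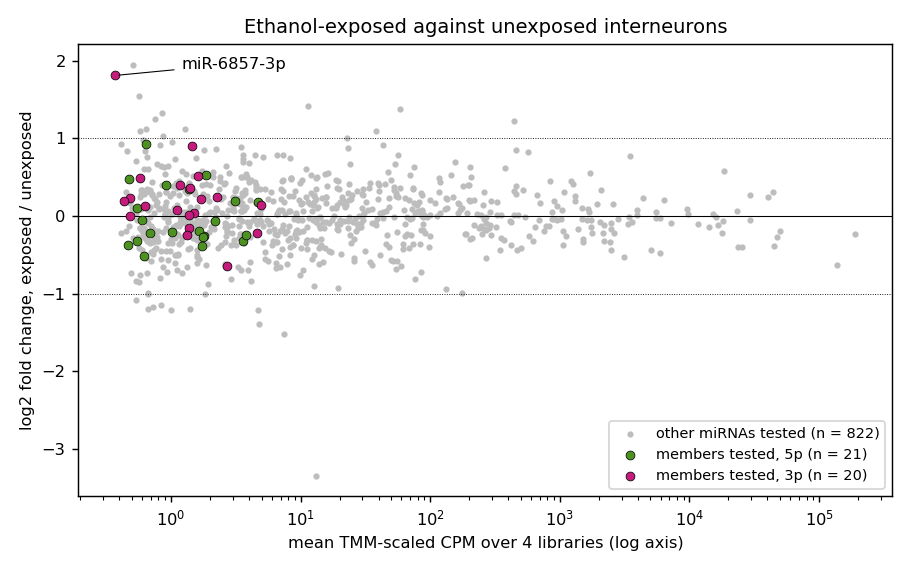
Log2 fold change of exposed over unexposed cells (y axis) against the mean TMM-scaled CPM over the 4 libraries (x axis, log scale), for the 41 members tested, coloured by arm, and the other 822 miRNAs tested; dotted lines mark a fold change of 2. The members sit at the low end of the levels and around 0, and miR-6857-3p, at 1.81, is the only one beyond a dotted line.

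An older set of mirtrons gives a comparison within the same fit. The 11 hairpins from miR-877 and miR-1224 to miR-1238 listed for this purpose held 22 rows, of which 13 had at least 10 counts and 9 were tested. Their most abundant arm, miR-877-5p, had 6201 counts in all, beside 377 for miR-6868-3p. In the fit 0 of 9 had an unadjusted P under 0.05 and 7 were higher in exposed cells, with a median log2 fold change of 0.11. Their summed level without TMM scaling was 167, 121, 94.8 and 148 CPM, so unexposed replicate 1 was the lowest library here too. That sum, and any share of arms taken from it, is mostly miR-877-5p.

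Seeds were nearly all different. The 100 members with a sequence carried 98 seeds, and 2 pairs shared one. miR-6838-5p, from an intron of POLM, a DNA polymerase used in end joining, has the seed of the miR-15/16 family, which is known for restraining cell division. It had 5, 4, 4 and 1 counts, beside 44078, 40160, 20668 and 19798 for miR-16-5p and 13207, 10570, 5827 and 5846 for miR-15b-5p. The seeds are shown to make the match visible, with only the first base before the seed and the bases after it differing.
miR-6838-5p: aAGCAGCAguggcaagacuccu
miR-16-5p: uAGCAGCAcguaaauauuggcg
miR-15b-5p: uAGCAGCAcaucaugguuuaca
Within the block, miR-6733-5p, at 40, 36, 26 and 17 counts, shares its seed with miR-6739-5p, at 7, 3, 1 and 4, and miR-6779-5p, at 6, 2, 4 and 1, shares its seed with miR-6780a-5p, at 9, 3, 8 and 2. The pairs come from unrelated host genes, EBNA1BP2 and IPO9 for the first and LASP1 and EZH1 for the second.
miR-6733-5p: uGGGAAAGacaaacucagaguu
miR-6739-5p: uGGGAAAGagaaagaacaagua
miR-6779-5p: cUGGGAGGggcuggguuuggc
miR-6780a-5p: uUGGGAGGgaagacagcuggaga

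A single hairpin was picked after its values were seen, for its host. MIR6761 lies at the end of a 1663-base intron of ALDH2, the mitochondrial aldehyde dehydrogenase that clears the acetaldehyde made from ethanol. It is on the plus strand and is shown with both arms in capitals.
MIR6761 (chr12:111799834-111799905): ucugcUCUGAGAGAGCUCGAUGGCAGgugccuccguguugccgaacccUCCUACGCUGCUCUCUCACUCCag
miR-6761-5p had 28, 23, 14 and 5 counts, with a log2 fold change of 0.40 ± 0.51 (SE, edgeR, adjusted p = 0.966), and the groups overlapped. The 3p arm had 19, 5, 1 and 6 counts and was too low for the test. The leading arm was not the same in every culture, since 40.4%, 17.9%, 6.67% and 54.5% of the counts were 3p. No difference between exposed and unexposed cells was detectable for this hairpin at this depth.

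Reads of 5 members could come from more than 1 copy in the genome, counting only the loci found under their names in RefSeq. Besides miR-6724-5p with 2 loci, these were both arms of miR-6770, with 3 loci, miR-6859-5p, with 4, and miR-6862-5p, with 2. Their counts, 20 to 357 in all, describe the copies together.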

How the data were processed

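Small RNA libraries of 2 ethanol-exposed and 2 unexposed cultures were made by the authors with an NEBNext kit and processed with CAP-miRseq, and the authors deposited raw read counts per mature miRNA. The submitters' processing notes name hg19. The miRNA annotation release and the handling of reads with several matches are not given in the sources used here. Groups and replicate numbers came from the labels. The members and lists were chosen with earlier results of these data known.

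Counts were fitted with edgeR 4.0.16 in R 4.3.3 (filterByExpr with a minimum count of 10 and total of 15, TMM, quasi-likelihood test, no covariates, Benjamini-Hochberg adjustment over 863 miRNAs). Standard errors were taken from the F statistic. Ratios between single libraries used a pseudocount of 0.5. DESeq2 1.42.0, limma-voom (limma 3.58.1), other scalings and filters, a replicate block and leaving out each library were tried. The fit was tested on simulated data. Sequences and positions were joined by miRNA name from RefSeq (GRCh38.p14) for 2367 rows, and introns came from GENCODE 29 (GRCh38); where isoforms differed, the intron sharing most splice sites, then the shortest, was used. Named members were the 12 highest by mean CPM, those with P under 0.05, the 3 largest changes each way, their other arms, shared seeds and the edge of the count rule. Per library, 12100425 to 24858230 counts were available.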

Additional observations from a re-analysis of the deposited data

How the results depend on the processing

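No member had an adjusted p under 0.05 in any fit. The count past both thresholds, 1 with edgeR, was 6 with all 114 members in the fit (49 of all 1825 miRNAs there, against 20 of 863). It was 0 with DESeq2 (10 of all 863). It was also 0 with a CPM above 1 in 2 libraries (12 of all 726) and with 10 counts in every library (11 of all 719). With sums of at least 50 it was 0 as well. These filters and this minimum leave out miR-6857-3p and do not retest it. For a P of 0.05 alone the count was 7 (94 of all) with all members in the fit. It was 0 in each setting that gave 0 above. Leaving out 1 library gave 1 to 6 for either count, and 6 without unexposed replicate 2, where 45 of all miRNAs passed both and 106 passed P: miR-6763-5p, miR-6741-3p, miR-6857-3p, miR-6747-3p, miR-6726-3p and miR-6786-3p. Without unexposed replicate 1, miR-6747-3p passed instead of miR-6857-3p, at -1.43, and without exposed replicate 2 miR-6726-3p did, at 1.21.

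The median log2 fold change, 0.07, was 0.21 with library size only, -0.033 with upper quartile scaling (median of all miRNAs 0.14 and -0.12), 0.16 without the filter, and -0.14 to 0.26 without 1 library. The log2 ratio of the summed levels, 0.06, was -0.049 with upper quartile scaling and -0.14 to 0.30 without 1 library. The 3p share difference of the 20 hairpins was 0.488 to 10.6 points without 1 library. With 1 library left in a group, it is assumed to vary like the other group. With library size only, miR-6818-5p turned to 0.098. Without 1 library each, these turned sign, over ranges of -0.78 to 0.73 (miR-6716-3p), -0.58 to 0.015 (miR-6721-5p), -0.53 to 0.21 (miR-6733-5p), -0.36 to 1.39 (miR-6741-3p), -1.43 to 1.32 (miR-6747-3p), -0.21 to 1.39 (miR-6761-5p), -0.23 to 0.84 (miR-6794-3p), -0.26 to 0.14 (miR-6818-5p) and -0.31 to 0.80 (miR-6868-3p). The causes were not tested.

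Whether cultures of the same replicate number were handled together is not stated, and no pairing was assumed in the main fit. Differences between replicates correlated at -0.186 over 863 miRNAs and at -0.34 over the 41 members tested. The replicate block gave counts of 1 and 1 (16 and 25 of all 863 miRNAs, against 20 and 39 in the main fit). It gave a median of 0.08, a ratio of 0.08 and a share difference of 5.55 points. The crossed block, chosen after seeing the data, gave 1 past both thresholds (21 of all 863) and 2 past P of 0.05 (59 of all). Counting error limits members of a few counts, and depth and exposure cannot be told apart.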
